A study of Mus musculus with 14 samples.

Results

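The genes described here are 9 transcription factors outside the HOX clusters that lay out body regions in the embryo: Tbx15, Shox2, En1, Tcf21, Wt1 and the Iroquois factors Irx1, Irx2, Irx3 and Irx5. They were chosen by name and not by a rule on measured values, but with earlier results of these data known. The Ensembl identifier of each was matched to its symbol, which gave 9 of the 38553 genes listed for every library. The libraries came from adipocytes of male C57BL/6 mice, an inbred laboratory strain, isolated from 3 fat depots on 2 diets. The depots were the epididymal pad, a visceral white fat of the abdomen, the inguinal pad, a subcutaneous white fat, and the interscapular brown pad. Mice received a normal chow or a high-fat diet for 16 weeks, starting at weaning at 3 weeks of age, and no group carried an altered gene.

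Each white depot had 3 libraries per diet, numbered 0, 1 and 2, and brown fat had 1 library per diet. Every library was made from tissue pooled from 3 to 5 mice, so its value is a mean over animals, and the white libraries are called biological triplicates in the study's design. Pads were digested with collagenase (20 min for white and 40 min for brown), and the layer of floating cells was taken. Poly(A) RNA of this layer was sequenced. Levels are given in FPKM, a count of sequenced fragments scaled to transcript length and to library size, which allows genes of different length to be compared. Read depth was unknown, so the precision of a value can be read only from the spread between libraries.

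T-box, homeodomain and basic helix-loop-helix factors bind DNA and turn on regional gene programmes in the embryonic mesoderm, from which fat cells and their progenitors arise. Adipose depots keep part of such a positional programme in adult life, and several of these factors are known as depot markers of fat progenitors. Tbx15 is a T-box factor of limb, skin and skeletal muscle development, Shox2 is a homeodomain factor of the proximal limb, and En1 is a homeodomain factor of ventral ectoderm and of the dermis of the back. Tcf21 is a basic helix-loop-helix factor of visceral mesenchyme, and Wt1 is a zinc-finger factor of mesothelium, kidney and gonad that also marks visceral fat progenitors. The Iroquois factors are homeodomain proteins encoded in a pair of clusters, and Irx3 and Irx5 of the second cluster are known regulators of body weight and of adipocyte browning.

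The members lay on 6 chromosomes in the RefSeq annotation of GRCm38.p6, the assembly on which mm10 is based. Irx1 (chr13:71958232-71963723) and Irx2 (chr13:72624430-72634196) were separated by 660707 bases, and Irx4, the third gene of that cluster, began 625393 bases after Irx2. Irx3 (chr8:91798511-91801654) and Irx5 (chr8:92357796-92361456) were separated by 556142 bases, with Irx6 312833 bases beyond Irx5. Tbx15 lay at chr3:99240348-99354260, Shox2 at chr3:66971723-66981771, En1 at chr1:120602487-120607991, Tcf21 at chr10:22817263-22820143 and Wt1 at chr2:105126529-105173614. These ranges cover whole genes, exons and introns included.

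RefSeq promoter sequence was at hand for 5 of the 9 members: En1, Shox2 and Irx2, which were higher in inguinal fat, Tcf21, which was higher in epididymal fat, and Irx3, whose depot difference depended on the diet. They are shown because the members differ by depot at the level of RNA, and these are the 250 bases before the RefSeq start of each gene, 5′ to 3′ on the strand of the gene. Capitals mark matches, on either strand, to any of 7 short motifs. These were the E-box CANNTG, the T-box core AGGTGT, the homeodomain core TAATTA, the Iroquois palindrome ACANNTGT (which contains an E-box), the GC box GGGCGG, the CCAAT box and the TATA box TATAAA.

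En1 (chr1:120602237-120602486, plus strand): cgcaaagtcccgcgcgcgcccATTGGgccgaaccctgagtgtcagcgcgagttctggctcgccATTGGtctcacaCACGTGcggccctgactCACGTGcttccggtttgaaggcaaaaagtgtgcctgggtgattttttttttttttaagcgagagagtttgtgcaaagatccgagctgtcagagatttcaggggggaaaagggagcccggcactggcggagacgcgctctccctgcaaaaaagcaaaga
Shox2 (chr3:66981772-66982021, minus strand): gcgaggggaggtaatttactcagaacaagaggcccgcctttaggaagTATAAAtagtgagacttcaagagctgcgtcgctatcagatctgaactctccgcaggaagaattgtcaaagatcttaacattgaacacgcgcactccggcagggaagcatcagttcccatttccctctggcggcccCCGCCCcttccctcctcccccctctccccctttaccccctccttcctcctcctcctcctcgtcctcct
Irx2 (chr13:72628570-72628819, plus strand): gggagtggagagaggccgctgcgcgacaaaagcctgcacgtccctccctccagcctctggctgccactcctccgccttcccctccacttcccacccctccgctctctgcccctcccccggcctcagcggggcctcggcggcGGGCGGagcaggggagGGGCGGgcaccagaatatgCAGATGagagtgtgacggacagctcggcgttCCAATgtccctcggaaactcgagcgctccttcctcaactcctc
Tcf21 (chr10:22820144-22820393, minus strand): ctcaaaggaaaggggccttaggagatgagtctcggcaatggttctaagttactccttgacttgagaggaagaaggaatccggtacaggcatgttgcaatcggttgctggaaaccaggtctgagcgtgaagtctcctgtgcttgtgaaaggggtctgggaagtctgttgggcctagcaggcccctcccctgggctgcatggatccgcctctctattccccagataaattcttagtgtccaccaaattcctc
Irx3 (chr8:91801655-91801904, minus strand): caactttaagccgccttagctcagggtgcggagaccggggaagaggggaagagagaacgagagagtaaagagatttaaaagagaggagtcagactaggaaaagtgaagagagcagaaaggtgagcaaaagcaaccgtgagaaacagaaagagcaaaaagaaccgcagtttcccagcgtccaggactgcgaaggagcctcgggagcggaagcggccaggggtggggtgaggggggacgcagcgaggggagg

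The En1 promoter held 2 E-boxes, beginning 175 and 158 bases before the start, and 2 CCAAT boxes, beginning 229 and 187 bases before it. Of all 32851 promoters of this length, 66.2% held an E-box and 33.8% a CCAAT box. The Irx2 promoter, whose start lies within the RefSeq gene record, held 1 E-box at 74 bases, 2 GC boxes at 109 and 93 bases, and 1 CCAAT box at 43 bases. The Shox2 promoter held a TATA box at 203 bases and a GC box on the opposite strand at 68 bases. A TATA box was found in 12.4% and a GC box in 32.7% of all promoters.

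No match to any of the 7 motifs was found in the windows of Tcf21 and Irx3. The T-box core, held by 11.8% of all promoters, the homeodomain core, held by 4.84%, and the Iroquois palindrome, held by 6.31%, were in none of the 5 windows. A match is a description of letters and not a binding site. The Irx2 promoter was the richest of the 5 in G and C at 68.4%, against 56.0% for En1 and Irx3, 55.6% for Shox2 and 52.4% for Tcf21, where the median of all promoters was 52.4%. Tcf21 had 5 CpG dinucleotides, near the median of 6, while En1 and Irx2 had 19 each, Irx3 13 and Shox2 11.

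Before the members, the libraries themselves were examined. Adipoq, the adipocyte hormone adiponectin, lay between 919 and 2536 FPKM in all 14 libraries, and Ucp1, the brown fat protein that turns fuel into heat, reached 121 and 503 FPKM in the brown libraries against at most 3.30 in white ones, except inguinal high-fat library 2 at 36.2. The floating layers also carried RNA of other cells. Markers of the epididymis, 6 in number, summed to 38.3 FPKM in epididymal normal-diet library 2, where 5 of them were listed at 0. They summed to 1.37 in epididymal high-fat library 0, to at most 0.0617 in the other epididymal libraries and to 0 in inguinal and brown ones. The part of such RNA in the epididymal values of the members was not tested. The summed level of 13 lymphocyte markers was between 84.8 and 1028 FPKM in the inguinal normal-diet libraries against at most 19.3 elsewhere, with libraries 0 and 2 the highest. Mitochondrially encoded genes took 40.3% to 66.7% of the protein-coding FPKM in epididymal normal-diet libraries, 26.9% to 37.0% in epididymal high-fat, 26.9% to 35.2% in inguinal high-fat and over 80% in both brown libraries. In the inguinal normal-diet group they took 52.1% and 60.7% in libraries 0 and 2 and 20.6% in library 1, which had the highest Tbx15, Shox2 and Irx2 of its group. The part of this share in the results was not tested. In the same group Spearman's rho between libraries across genes was 0.859 to 0.898, the lowest of the 4 white groups. In such bulk samples, fewer cells of a type and less RNA per cell cannot be told apart.

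**Figure D1:**
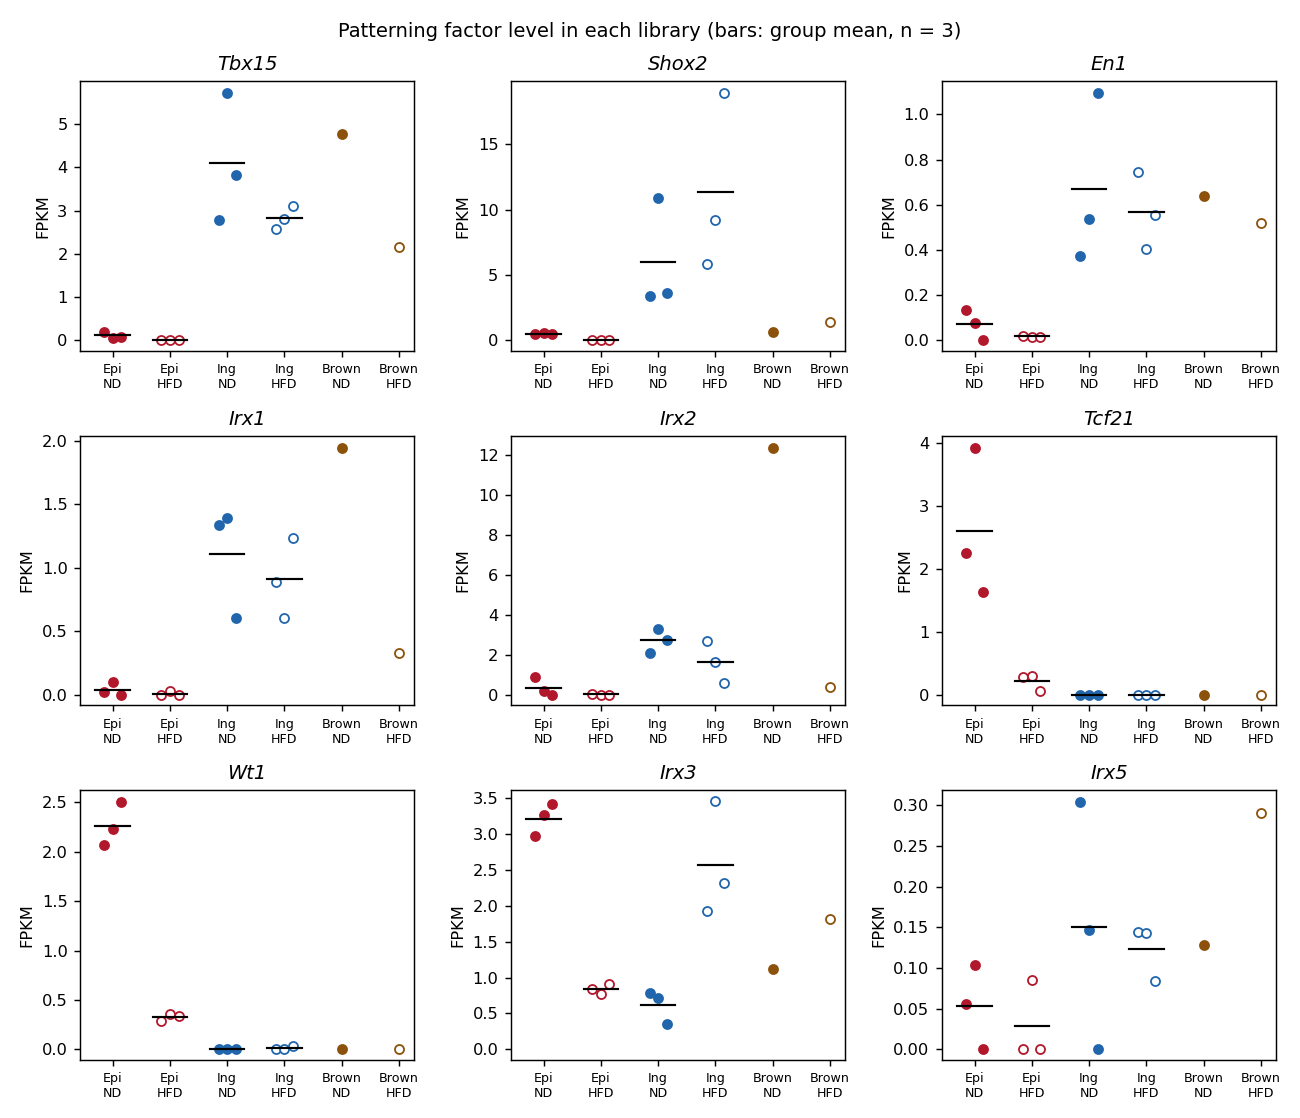
Level in FPKM (y axis, a separate linear scale for each gene) of the 9 patterning factors in each of the 14 libraries, by depot and diet (x axis; Epi, epididymal; Ing, inguinal; ND, normal diet; HFD, high-fat diet). Points are libraries and bars are means of 3. Tbx15, Shox2, En1, Irx1 and Irx2 are high in inguinal libraries, Tcf21 and Wt1 in epididymal libraries, and Irx3 changes order between the diets.

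All 9 members were low genes: the highest value of any of them in a white library was 18.9 FPKM, for Shox2. Differences were tested with limma on log2(FPKM + 0.5) over the 12 white libraries, and a change was called at an adjusted p under 0.05 over the 14959 genes that reached 0.5 FPKM in at least 3 of these libraries. The added 0.5 FPKM shrinks the differences of low genes, and where a group is listed at 0 it sets their size. With this test 8 members could be examined, and Irx5 could not. Tbx15, En1 and Irx1 passed the level filter through inguinal libraries alone, and Shox2 and Irx2 would not have passed without them. Tcf21 and Wt1 passed only through the 3 epididymal normal-diet libraries. For the 7 members called between the depots, being tested and differing by depot are therefore not independent, and for Tcf21 and Wt1 the same holds for the diet difference in epididymal fat and the diet by depot contrast. Counts of members called are given as a description.

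Averaged over the diets, 7 of the 9 members differed between epididymal and inguinal adipocytes, where 11.0% of all genes tested did. Tbx15, Shox2, En1, Irx1 and Irx2 were lower in epididymal fat, against 4.71% of all genes, and Tcf21 and Wt1 were higher, against 6.31%. A permutation of the depot labels within each diet, which uses no other gene, gave the same 7 members an exact two-sided p of 0.005, the smallest that its 400 regroupings allow. Of all genes tested, 4.88% reached that value. In 6 of the 7 members the 6 epididymal and the 6 inguinal libraries did not overlap, which held for 1.74% of all genes, and Irx2 was the exception. The permutation and the overlap used the same values as limma. The members had passed the level filter only with the depot where they were high, so neither is independent support. Markers of other cells also differed between the depots in the same contrast. In epididymal fat 10 of 13 lymphocyte, 6 of 9 endothelial and 2 of 3 tested Schwann cell markers were lower and 8 of 9 macrophage markers higher. Of fibroblast and progenitor markers 4 of 12 were lower there and 0 higher, and of brown adipocyte markers 3 of 8 were lower and 0 higher. Their part in the depot differences of the members was not tested.

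Tbx15 was at 0.196, 0.0675 and 0.0857 FPKM in the epididymal normal-diet libraries and listed at 0 in all 3 epididymal high-fat libraries. In inguinal fat it was at 2.79, 5.71 and 3.83 FPKM on the normal diet and at 2.58, 2.81 and 3.10 on the high-fat diet. The depots did not overlap: the lowest inguinal library lay far above the highest epididymal one. Group means were 0.116 ± 0.0694 FPKM in epididymal and 4.11 ± 1.48 in inguinal fat on the normal diet (SD, n = 3 each), a ratio of 35.3. The log2 difference, epididymal minus inguinal, was -2.86 on the normal diet (SE 0.27; limma, adjusted p = 0.000391) and -2.73 on the high-fat diet (adjusted p = 0.000285). Tbx15 is required for the differentiation of a subset of adipocytes and is known as a marker of subcutaneous against visceral fat.

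Averaged over the diets, Shox2 had the widest log2 depot difference of the 8 members tested, although Tbx15 and Tcf21 differed more on the normal diet. Its inguinal levels were 3.38, 10.9 and 3.61 FPKM on the normal diet and 5.88, 9.22 and 18.9 on the high-fat diet. Its epididymal levels were 0.503, 0.585 and 0.454 FPKM on the normal diet, and on the high-fat diet it was at 0.0257 in 1 library and listed at 0 in the other 2. Epididymal and inguinal libraries did not overlap, and the inguinal libraries were themselves spread over a wide range. The log2 difference was -2.48 on the normal diet (SE 0.44, adjusted p = 0.0096) and -4.39 on the high-fat diet (SE 0.44, adjusted p = 0.000285). The gene Rsrc1 overlaps Shox2 in the annotation, and the strand setting of the counting was not given, so reads of the overlap may be shared. Rsrc1 itself had group means between 9.73 and 14.4 FPKM and a depot difference of -0.37 (limma, adjusted p = 0.403).

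En1 was the lowest of the 5 inguinal genes. Its inguinal levels were 0.373, 0.539 and 1.09 FPKM on the normal diet and 0.746, 0.406 and 0.557 on the high-fat diet. In epididymal fat it was at 0.136, 0.0762 and 0 FPKM on the normal diet and between 0.0164 and 0.0193 on the high-fat diet. The depots did not overlap on either diet, but all levels were near the added 0.5 FPKM. Averaged over diets the difference was -1.01 (SE 0.22; limma, adjusted p = 0.0126), while neither diet alone passed, with -0.99 on the normal diet (95% interval -1.66 to -0.33, adjusted p = 0.0757) and -1.04 on the high-fat diet (95% interval -1.70 to -0.37, adjusted p = 0.0512). The high-fat value passed under 9 of the other settings tried.

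The Iroquois genes of the chromosome 13 cluster followed the inguinal side. Irx1 was at 1.34, 1.40 and 0.602 FPKM in the inguinal normal-diet libraries and at 0.888, 0.608 and 1.23 in the high-fat ones. No epididymal library exceeded 0.105 FPKM, and 3 of the 6 were listed at 0. The depots did not overlap, and the log2 difference was -1.54 on the normal diet (SE 0.31; limma, adjusted p = 0.0153) and -1.45 on the high-fat diet (SE 0.31, adjusted p = 0.0109).

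Irx2 was at 2.11, 3.29 and 2.75 FPKM in the inguinal normal-diet libraries and at 2.67, 1.65 and 0.572 in the high-fat ones. In epididymal fat it was at 0.892, 0.188 and 0 FPKM on the normal diet, and on the high-fat diet at 0.0590 in 1 library and 0 in the other 2. The depots did not overlap within a diet, but across diets the highest epididymal library (0.892) exceeded the lowest inguinal one (0.572). The difference was -2.02 on the normal diet (SE 0.44; limma, adjusted p = 0.0214) and -1.90 on the high-fat diet (SE 0.44, adjusted p = 0.0161). Both calls were near the threshold: leaving out epididymal library 1 or 2 or inguinal library 2 ended the first (adjusted p 0.0622 to 0.0869), and leaving out any of the 3 epididymal libraries or inguinal library 0 or 1 ended the second (0.0521 to 0.0714). The noncoding gene Gm20554, which overlaps Irx2, was at most 0.443 FPKM in any library. Irx4, the last gene of the cluster, was listed at 0 in all 14 libraries.

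**Figure D2:**
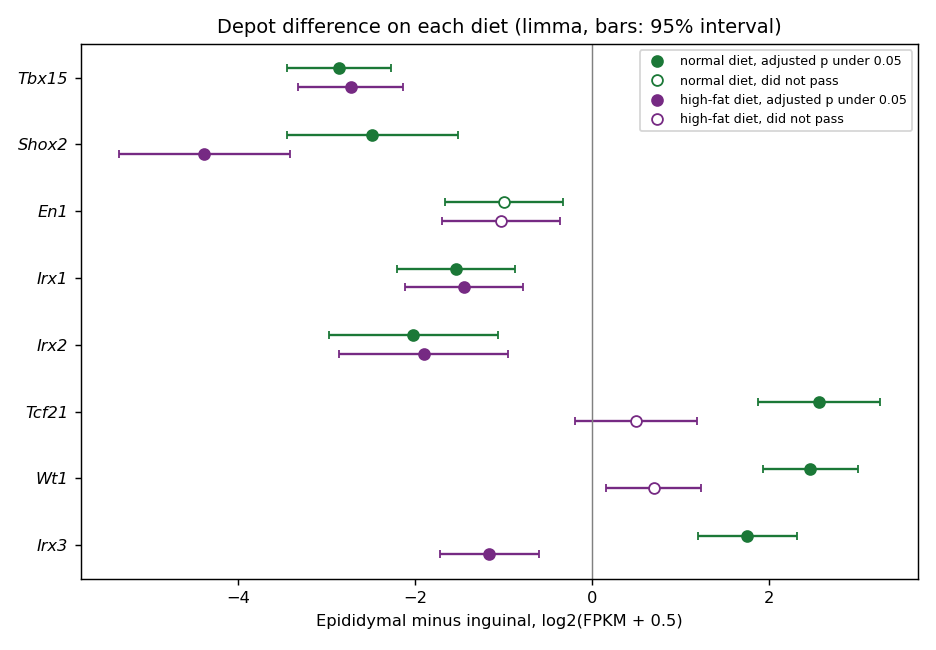
Epididymal minus inguinal difference on log2(FPKM + 0.5) (x axis) for the 8 members tested (y axis), on the normal diet (green) and the high-fat diet (purple). Points are limma estimates, bars are 95% intervals and filled points had an adjusted p under 0.05. The 5 upper genes lie left of 0 on both diets, Tcf21 and Wt1 lie to the right with smaller values on the high-fat diet, and Irx3 lies at 1.75 on the normal diet and at -1.16 on the high-fat diet.

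Tcf21 and Wt1 were the epididymal genes of the set. Tcf21 was listed at 0 in all 6 inguinal and both brown libraries. In epididymal fat it was at 2.25, 3.93 and 1.64 FPKM on the normal diet and at 0.283, 0.306 and 0.0606 on the high-fat diet. Every epididymal library was thus above every other library, and the normal-diet libraries were above the high-fat ones. The depot difference was 2.57 on the normal diet (SE 0.32; limma, adjusted p = 0.00154) and 0.50 on the high-fat diet (95% interval -0.19 to 1.19, adjusted p = 0.407), and its size is set in part by the added 0.5 FPKM because the inguinal libraries were at 0.

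Wt1 was at 2.06, 2.23 and 2.50 FPKM in the epididymal normal-diet libraries and at 0.289, 0.361 and 0.339 in the high-fat ones. It was listed at 0 in both brown and in 5 of the 6 inguinal libraries, and was at 0.0354 FPKM in the sixth, high-fat library 2. The epididymal libraries of the same diet lay close together. The depot difference was 2.46 on the normal diet (SE 0.25; limma, adjusted p = 0.00045) and 0.70 on the high-fat diet (95% interval 0.16 to 1.23, adjusted p = 0.103). The antisense transcript Wt1os, which starts 19 bases from Wt1, was at 0.296 ± 0.136 FPKM in epididymal normal-diet libraries (SD, n = 3), at a mean of 0.0468 on the high-fat diet and at 0 in the other libraries.

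Mesothelium, the lining of the abdominal organs, also expresses Wt1 and could be carried in epididymal layers. Of 10 mesothelial markers tested, 9 were higher in epididymal than in inguinal fat and 0 lower, with a median log2 difference of 1.69 against 0.019 for all genes. The summed level of the list was 37.8 to 59.1 FPKM in epididymal normal-diet libraries, 18.5 to 29.0 in epididymal high-fat, 20.4 to 23.9 in inguinal normal-diet and 19.1 to 21.9 in inguinal high-fat libraries. Most of the inguinal sum was Cldn15, at 17.8 to 21.8 FPKM there. It was the tested marker that was not higher in epididymal fat (-0.48; limma, adjusted p = 0.0705). On the high-fat diet it was lower there (-1.19, adjusted p = 0.00556). The defining markers Msln (mesothelin) and Upk3b were listed at 0 in all inguinal and brown libraries, as Tcf21 was. Msln was at 1.69, 2.50 and 2.29 FPKM in epididymal normal-diet libraries, a level near that of Wt1. The part of mesothelial RNA in the depot difference of Wt1 and Tcf21 was not tested.

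On the normal diet alone 7 members differed by depot, where 6.51% of all genes did, and on the high-fat diet 5 did, where 10.6% did. The members called on both diets were Tbx15, Shox2, Irx1, Irx2 and Irx3. The high-fat count was 3 without epididymal library 0 or 1 or without inguinal library 1 of that diet, when Irx2 and Irx3 no longer passed. A fit of the 6 normal-diet libraries alone kept only the Wt1 call of the 7, with the same log2 differences and adjusted p of 0.0539 to 0.157 for the others. That fit called 14 genes in all, against 974 in the fit of all 12 libraries. Irx1 was also lost on the normal diet without epididymal library 2 (adjusted p = 0.0568) and on the high-fat diet without inguinal library 2 (adjusted p = 0.0573).

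Irx3 was the only member called in opposite directions in the depots. It was at 2.97, 3.26 and 3.42 FPKM in epididymal normal-diet libraries and at 0.844, 0.773 and 0.913 in epididymal high-fat libraries. In inguinal fat it was at 0.781, 0.716 and 0.360 FPKM on the normal diet and at 1.93, 3.46 and 2.31 on the high-fat diet. The order of its group means was epididymal normal diet (3.22 ± 0.227 FPKM), inguinal high-fat (2.57 ± 0.797), epididymal high-fat (0.843 ± 0.0697) and inguinal normal diet (0.619 ± 0.227; SD, n = 3 each). The 2 high groups overlapped each other and the 2 low groups overlapped each other, while no high library overlapped a low one.

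On the high-fat diet Irx3 fell by 1.47 on the log2 scale in epididymal fat (SE 0.26; limma, adjusted p = 0.00184), a ratio of means of 3.82. In inguinal fat it rose by 1.45 (SE 0.26, adjusted p = 0.00336), a ratio of 4.15. The difference between these diet effects was -2.91 (SE 0.36, adjusted p = 0.0026), and it passed under every setting tried, with adjusted p between 0.000369 and 0.0107. Its depot difference was therefore 1.75 on the normal diet (adjusted p = 0.00396) and -1.16 on the high-fat diet (adjusted p = 0.0129), and averaged over the diets it was 0.30 (95% interval -0.10 to 0.69, adjusted p = 0.347; exact permutation p = 0.565). In each of these 4 comparisons of 3 against 3 libraries the groups did not overlap, and the exact permutation p was 0.1, the smallest that such a comparison allows. Groups did not overlap in 19.1% of all genes for the depots on the normal diet, 38.4% on the high-fat diet, 42.4% for the diets in epididymal and 33.1% in inguinal fat.

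Falling in epididymal and rising in inguinal fat with both diet tests passed was seen in 12 of the 14959 genes (0.0802%), Irx3 included. This pattern was taken from Irx3 itself and not set beforehand, so its share is a description and no support. The inguinal call did not hold in a fit of the 6 inguinal libraries alone (adjusted p = 0.0538). The high-fat depot call was lost without epididymal high-fat library 0 (adjusted p = 0.0542) or 1 (0.0586) or inguinal high-fat library 1 (0.0623). Leaving out inguinal normal-diet libraries 0 and 2, the lymphocyte-rich ones, left library 1 alone in that group, with Irx3 at 0.716 FPKM. The inguinal high-fat libraries were at 1.93 to 3.46 FPKM. A group of 1 library has no spread of its own, so the part of lymphocyte RNA in the inguinal rise was not tested.

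Irx5, the neighbour of Irx3 in the cluster and a homeodomain factor of the same family, was at most 0.304 FPKM in any library and was listed at 0 in 4 of the 12 white ones. Its levels were 0.0562, 0.104 and 0 FPKM in epididymal normal-diet libraries, and 0, 0.0847 and 0 in epididymal high-fat ones. In inguinal fat they were 0.304, 0.147 and 0 FPKM on the normal diet and 0.144, 0.143 and 0.0840 on the high-fat diet. The groups overlapped in every comparison, and the exact permutation p for the depot was 0.08. A pattern like that of Irx3 was not detectable at these levels. Irx6, the third gene of the cluster, was at most 0.0361 FPKM. Fto, the gene that ends 130078 bases before Irx3 and whose introns are known to hold enhancers of it, had group means of 18.1 to 22.2 FPKM and no call in any of the 6 contrasts.

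**Figure D3:**
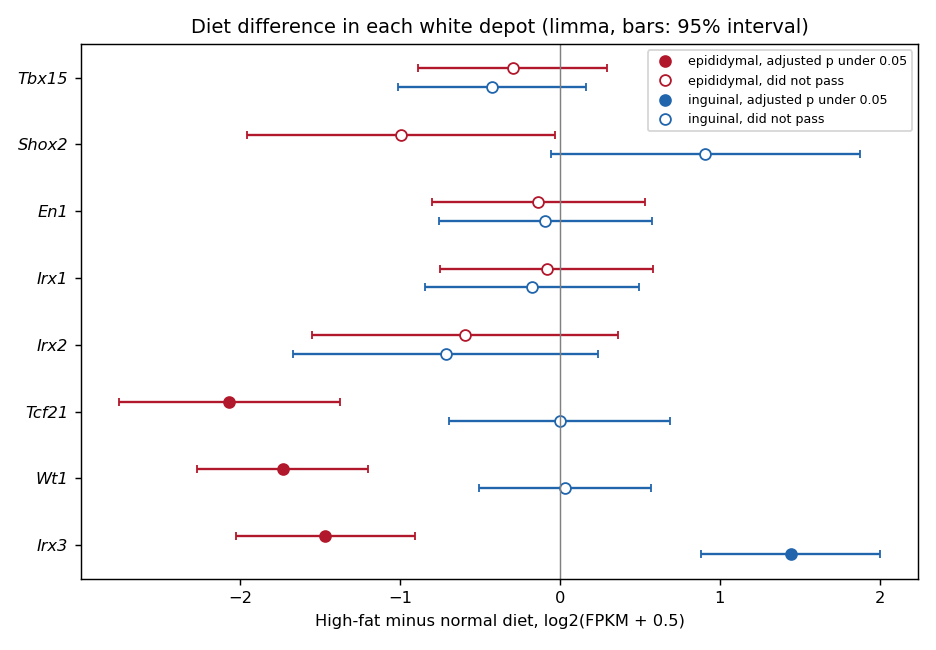
High-fat minus normal diet difference on log2(FPKM + 0.5) (x axis) for the 8 members tested (y axis), in epididymal (red) and inguinal (blue) fat. Points are limma estimates, bars are 95% intervals and filled points had an adjusted p under 0.05. Tcf21, Wt1 and Irx3 lie left of 0 in epididymal fat, at -2.07, -1.74 and -1.47, and Irx3 lies at 1.45 in inguinal fat.

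In epididymal fat 3 of the 9 members were lower on the high-fat diet and 0 higher, where 7.35% of all genes were lower and 19.5% changed in either direction. These were the members with the highest epididymal levels on the normal diet. Tcf21 fell by 2.07 on the log2 scale (SE 0.32; limma, adjusted p = 0.000772), with means of 2.61 ± 1.18 FPKM on the normal and 0.217 ± 0.136 on the high-fat diet (SD, n = 3 each). Wt1 fell by 1.74 (SE 0.25; limma, adjusted p = 0.000464), from 2.27 ± 0.221 to 0.330 ± 0.0369 FPKM. The ratio of the means of Wt1 was 6.88, and neither gene overlapped between the diets, as was the case in 42.4% of all genes tested. The third was Irx3, given above.

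The other members had little room to fall in epididymal fat. Shox2 had no overlap between the diets there (0.454 to 0.585 FPKM against at most 0.0257), as was the case in 42.4% of all genes. Its difference was -0.99 (95% interval -1.96 to -0.03; limma, adjusted p = 0.146). It passed with a pseudocount of 0.1 (adjusted p = 0.00468), with array weights (0.0221) and with only the groups compared (0.0031). Tbx15 had values above 0 on the normal diet and none on the high-fat diet, and the difference was -0.30 (adjusted p = 0.51). For En1, Irx1 and Irx2 the differences were -0.13, -0.08 and -0.59, with adjusted p of 0.4 or more.

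In inguinal fat Irx3 was the only member called between the diets, where 19.5% of all genes were called. Shox2 averaged 5.96 ± 4.28 FPKM on the normal and 11.3 ± 6.75 on the high-fat diet (SD, n = 3 each), and the libraries overlapped. Its difference was 0.91 (95% interval -0.06 to 1.87; limma, adjusted p = 0.17). Without inguinal normal-diet library 1, which had the highest Shox2 of its group, the difference was 1.41 (adjusted p = 0.0158), and without libraries 0 and 2 together it was -0.10. With array weights it was 1.31 (limma, adjusted p = 0.0274). For Tbx15 (-0.42), Irx2 (-0.71), Irx1 (-0.18) and En1 (-0.09) the adjusted p lay at 0.275 or more, and Wt1 and Tcf21 were at or near 0 on both diets.

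The diet effect differed between the depots for 3 members, where 7.22% of all genes differed. Besides Irx3 these were Tcf21, at -2.07 (SE 0.45; limma, adjusted p = 0.0193), and Wt1, at -1.77 (SE 0.35, adjusted p = 0.0128). Since both genes were at or near 0 in inguinal fat, this difference is that of the epididymal fall alone. Both calls were lost with a pseudocount of 0.1 (adjusted p = 0.0581 and 0.0578). That of Wt1 was also lost with a filter of 2 FPKM (0.107). That of Tcf21 was also lost without inguinal normal-diet libraries 0 and 2, which left library 1 alone in that group. Shox2 did not pass, at -1.90 (95% interval -3.27 to -0.54, adjusted p = 0.0914). Among the settings tried it passed with a pseudocount of 0.1 (limma, adjusted p = 0.0159) and with array weights (0.00794). It also passed without inguinal normal-diet library 1 (0.00848).

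Markers of other cells moved with the epididymal fall. Of 12 fibroblast and progenitor markers, 6 were lower and 1, the collagen gene Col15a1, higher on the high-fat diet in epididymal fat, with a median of -1.67. Their summed level was 698 to 1125 FPKM on the normal and 479 to 559 on the high-fat diet. Dcn (decorin), a matrix proteoglycan of fibroblasts, was at 443, 609 and 388 FPKM against 50.5, 80.5 and 57.9. Of 9 endothelial markers 8 were lower, with a median of -2.70 and a summed level of 516 to 542 against 51.5 to 94.1 FPKM. For both summed levels the diets did not overlap. Markers given by name here were chosen after their values were seen.

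Of the 10 tested mesothelial markers 1 (Cldn15) was lower and 0 higher on the high-fat diet in epididymal fat, and all 10 differences were below 0, with a median of -0.17 against 0.070 for all genes. The summed level of the list did not overlap between the diets (37.8 to 59.1 FPKM on the normal and 18.5 to 29.0 on the high-fat diet). This lack of overlap rested on Cldn15, the most abundant of its genes. Cldn15 was at 22.6, 34.1 and 17.1 FPKM on the normal and at 8.37, 7.72 and 9.06 on the high-fat diet. Msln was at 0.802, 3.64 and 2.82 FPKM on the high-fat diet (difference -0.01; limma, adjusted p = 0.995) and Upk3b at 3.51, 4.20 and 6.74 against 3.41, 7.11 and 5.84 on the normal diet (-0.16, adjusted p = 0.79). Both of these defining markers overlapped between the diets, while Nkain4 (2.23 to 3.70 against 1.34 to 1.82 FPKM) did not. In inguinal fat, where Irx3 rose, the fibroblast list also had 6 markers lower and 1 higher, with a summed level of 621 to 1246 FPKM on the normal and 405 to 542 on the high-fat diet, and all 13 lymphocyte markers were lower. Of 8 markers of mural and smooth muscle cells, 4 were lower and 1 higher in epididymal fat (median -1.37) and 3 were higher and 0 lower in inguinal fat (median 0.78). Among them Rgs5, a pericyte marker, was lower in epididymal fat (-2.81; limma, adjusted p = 3.06e-05) and higher in inguinal fat (1.13, adjusted p = 0.0116), the directions of Irx3. Brown adipocyte markers were higher in 4 of 8 and lower in 0 in inguinal fat, with a median of 1.15. The part of these cells in the diet results was not tested.

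**Figure D4:**
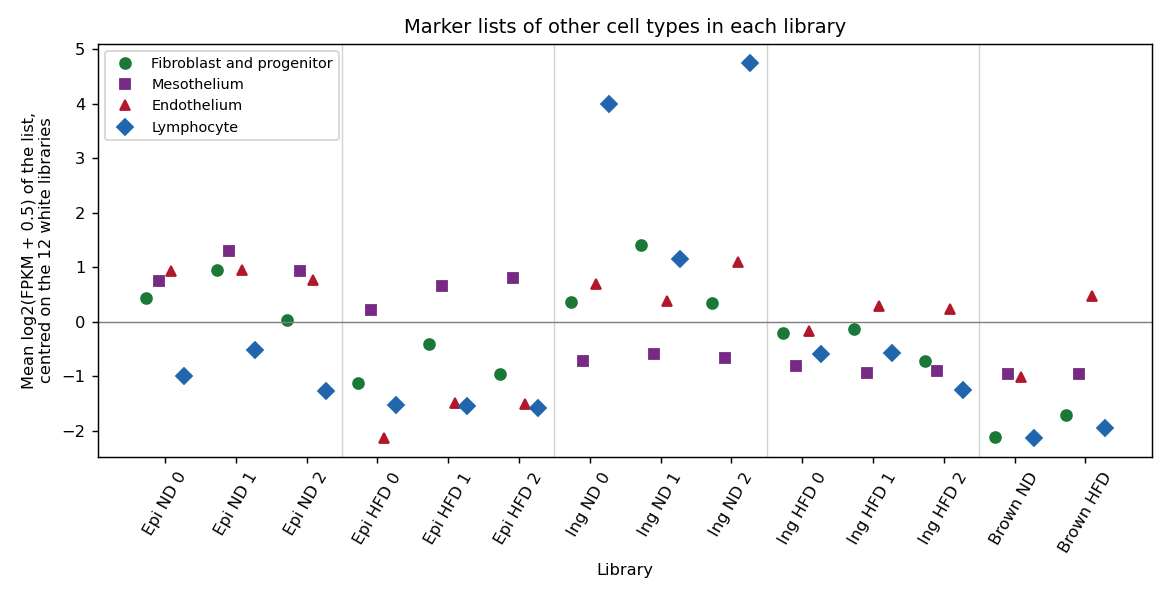
Mean log2(FPKM + 0.5) of 4 marker lists, each gene centred on its mean over the 12 white libraries (y axis), in each library (x axis; names as in the plot of levels). Points are libraries, set side by side by list. Fibroblast and endothelial lists are lower in epididymal high-fat than normal-diet libraries, the mesothelial list is above 0 in all 6 epididymal libraries, and lymphocyte markers reach 4.75 in inguinal normal-diet library 2.

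Brown fat had a single library per diet, so its values carry no test. Tbx15, known to be active in brown as well as subcutaneous fat, was at 4.77 FPKM on the normal and 2.17 on the high-fat diet, within or near the inguinal range. En1, which labels embryonic cells of the back that give rise to brown fat, was at 0.641 and 0.521 FPKM, inside the inguinal range on both diets. Tcf21 and Wt1 were listed at 0 in both, as in nearly all inguinal libraries. Shox2, at 0.644 and 1.41 FPKM, was 2.31 and 2.48 log2 units under the inguinal mean of the same diet, and thus did not follow Tbx15.

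Irx2 and Irx1 differed most between the brown libraries. Irx2 was at 12.3 FPKM on the normal and 0.385 on the high-fat diet, a log2 difference of -3.86. A drop of over 3 units was seen in 0.665% of 18038 genes. This cutoff was not set beforehand and lies just under the Irx2 value, so the share is a description only. Irx1 was at 1.95 and 0.331 FPKM, a difference of -1.56. The normal-diet value of Irx2 was the highest of all 14 libraries, 4.04 log2 units above the epididymal and 2.01 above the inguinal mean. Skeletal muscle markers summed to 53.3 FPKM in the normal-diet and 142 in the high-fat brown library, against at most 35.0 in white ones, and their part in these values was not tested.

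Irx3 was at 1.12 and 1.82 FPKM and Irx5 at 0.128 and 0.290 FPKM in brown fat. On both diets Irx3 lay between the inguinal and the epididymal means. Of the 9 members, 0 were more than 1 log2 unit above, or more than 1 under, both white groups on both diets, where 0.416% of genes were above and 1.81% under. On the normal diet alone Irx2 was above both, as 2.84% of genes were.

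For the 4 members that averaged 1 FPKM or more, the genes of most similar profile over the 14 libraries were sought by the root mean square difference of their centred log2 values, among 11784 genes. Nearest to Tbx15 were Vat1l (0.57), H2-Q10 (0.67) and Gldc (0.67), where the median of all genes was 1.54. Nearest to Shox2 were the HOX genes Hoxa9 (0.83), Hoxc10 (0.84) and Hoxa10 (0.90), against a median of 1.79. Nearest to Irx2 were Tbx15 (0.80), Hs3st3b1 (0.84) and AA474408 (0.84), against a median of 1.53. Over the 6 libraries of each depot, all of these genes had a higher mean in inguinal than in epididymal fat.

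Nearest to Irx3 was Hpgd (0.30), which encodes the enzyme that inactivates prostaglandins, followed by Papln (0.38) and Slc1a1 (0.38), against a median of 0.86. Hpgd was at 54.4, 41.7 and 46.8 FPKM in epididymal normal-diet libraries and at 22.9, 25.8 and 19.1 in high-fat ones. In inguinal fat it was at 13.9, 16.4 and 9.78 FPKM on the normal and at 34.9, 35.5 and 33.0 on the high-fat diet. Hpgd, a gene of far higher level, was picked for its likeness to Irx3 over these libraries. Its reversal of order between the depots is therefore no support for that of Irx3. A likeness over 14 libraries of shared depots and diets is a description only.

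**Figure D5:**
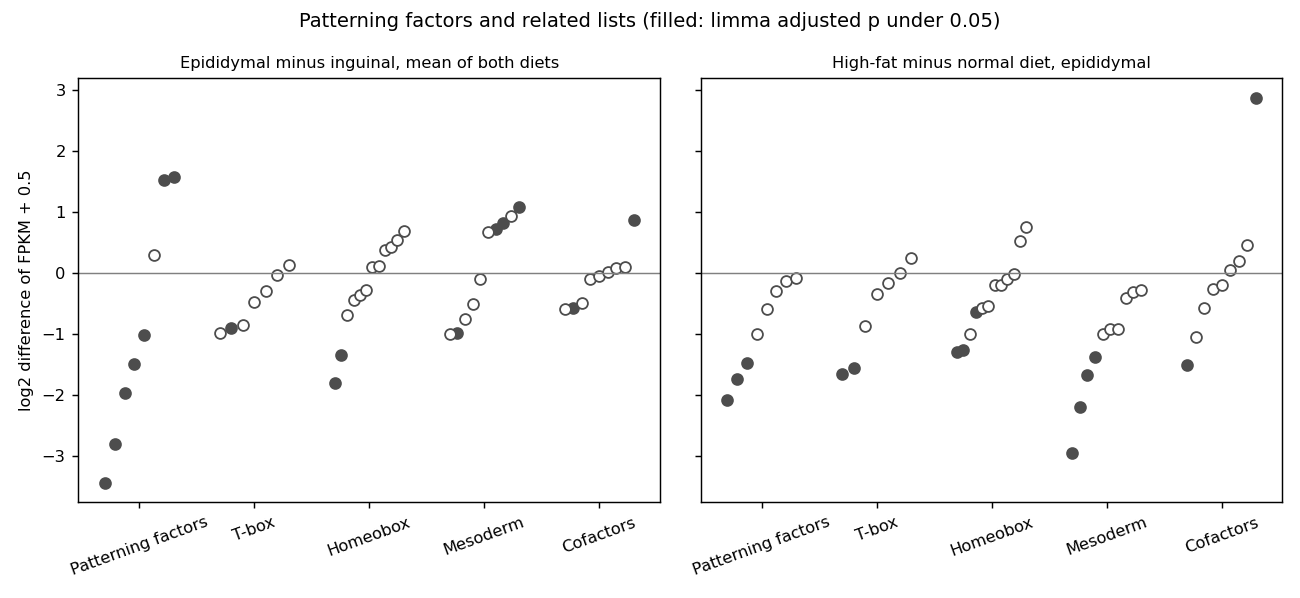
Differences on log2(FPKM + 0.5) (y axis) of the tested members and of 4 related lists (x axis; each point a gene, sorted by value), epididymal minus inguinal averaged over diets (left) and high-fat minus normal diet in epididymal fat (right). Filled points had a limma adjusted p under 0.05. The members span -3.44 to 1.58 on the left, and most related genes on the right lie under 0.

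The members were set beside 76 related factors, of which 38 could be tested. Between the depots 4 were higher and 5 lower in epididymal fat, with a median of -0.10 against 0.019 for all genes. Of all genes tested, 6.31% were higher and 4.71% lower. Among homeobox and limb or axial factors, Lhx8, a LIM homeodomain factor also known from brown fat, was lower in epididymal fat (-1.80; limma, adjusted p = 0.00497). Its epididymal levels were 0 to 0.250 FPKM and its inguinal levels 0 to 3.33, with the 3 high-fat libraries highest. Among 10 tested mesoderm factors 3 were higher in epididymal fat: the forkhead factors Foxc2 (1.09, adjusted p = 0.00682) and Foxc1 (0.73, adjusted p = 0.0444) and the zinc-finger factor Gata6 (0.83, adjusted p = 0.047). Tcf15, a basic helix-loop-helix factor of somites and endothelium, was lower (-0.98, adjusted p = 0.0405), as was the T-box factor Tbx21 of lymphocytes (-0.90, adjusted p = 0.0136). Of the cofactors, Basp1 was higher (0.88, adjusted p = 0.0182) and Tcf4 lower (-0.57, adjusted p = 0.0492). The values of Basp1, Tcf4 and Tcf15 came from the high-fat diet, at 2.44, -1.26 and -2.03, with -0.68, 0.12 and 0.07 on the normal diet, where none of them passed. Lhx8 likewise passed on the high-fat diet (-2.77, adjusted p = 0.00264) and not on the normal diet (-0.82, adjusted p = 0.281). Gata6 passed on the normal diet (1.32; limma, adjusted p = 0.0412) and not on the high-fat diet (0.33, adjusted p = 0.659). The same held for Tbx21 (-1.205, adjusted p = 0.0276, against -0.60, adjusted p = 0.223). Foxc1 passed on neither diet alone (1.06, adjusted p = 0.0551, and 0.40, adjusted p = 0.494), and Foxc2 passed on both (adjusted p = 0.0445 and 0.0318).

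In epididymal fat on the high-fat diet 10 of the 38 related factors were lower and 1 higher, with a median of -0.47 against 0.070 for all genes. Of all genes tested, 7.35% were lower and 19.5% changed in either direction. Among T-box factors Tbx2 (-1.64; limma, adjusted p = 0.00323) and Tbx3 (-1.56, adjusted p = 0.0011) were lower, and among homeobox factors Msx1 (-1.29, adjusted p = 0.0104) and Meis1 (-1.25, adjusted p = 0.00989) were. Meis1 was at 6.08 to 9.18 FPKM on the normal and 2.34 to 3.57 on the high-fat diet. The mesoderm factors Tcf15 (-2.94, adjusted p = 0.000296) and Osr1 (-2.20, adjusted p = 0.00538) were lower. Endothelial and fibroblast markers fell in the same libraries, as given above.

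Among 9 cofactors 1 was higher and 1 lower. The higher was Basp1, a corepressor partner of Wt1, at 2.28, 2.15 and 3.72 FPKM on the normal diet and 27.5, 26.0 and 16.1 on the high-fat diet. Its rise of 2.88 (SE 0.29; limma, adjusted p = 4.66e-05) ran opposite to that of Wt1 in the same libraries. The summed level of 9 macrophage markers was 470 to 945 FPKM on the normal and 1188 to 2141 on the high-fat diet there, and its part in the Basp1 value was not tested. The lower was Tcf4 (-1.51, adjusted p = 0.000955), an E protein of the kind that pairs with Tcf21.

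In inguinal fat 2 of the 38 related factors were higher and 4 lower on the high-fat diet, a smaller share than the 19.5% of all genes that were called there. Lhx8 rose by 1.85 (limma, adjusted p = 0.0136), from 0.451, 1.69 and 0 FPKM to 3.22, 3.33 and 2.92. Osr1 was lower in both depots, with -1.86 in inguinal fat (adjusted p = 0.0155). Eomes, a T-box factor that lymphocytes also express, was lower (-1.85, adjusted p = 0.00543), at 1.54 ± 0.851 FPKM on the normal diet (SD, n = 3) and at most 0.0472 on the high-fat diet, with its 2 highest libraries being those with the most lymphocyte RNA. Pbx2 (-0.62, adjusted p = 0.0464) and the Groucho corepressor Tle4 (-1.03, adjusted p = 0.0143) were lower as well.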

How the data were processed

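Poly(A) RNA-seq of 14 libraries was used. The submitters' processing notes name TopHat2 2.0.9, Cuffdiff 2.1.1 and the build mm10. The authors deposited 1 FPKM value for every gene and library, a unit read from the tools named and from the numbers themselves. Annotation, strand setting and normalization are not given in the sources used here. FPKM values without whole-read steps leave the depth unknown, so no counting error can be given, and between 15399 and 18029 genes were above 0 per library. A 0 in such tables can stand for a failed estimate, hence the wording "listed at 0".

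A symbol was matched to 36638 of 38553 identifiers. Groups came from the sample titles. With limma 3.58.1 (R 4.3.3; functions lmFit, contrasts.fit and eBayes, the last with its trend option) a model was fitted to log2(FPKM + 0.5) of the 12 white libraries as 4 group means (8 residual degrees of freedom), for 14959 genes with at least 0.5 FPKM in at least 3 of them. Two-sided p-values were adjusted by Benjamini and Hochberg's method over these genes, and a call was an adjusted p under 0.05. The p-values measure the spread between libraries of pooled mice. Exact permutation tests exchanged depots within diets. The test code was checked on simulated data. Brown libraries entered no test.

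The members and the lists of related factors and markers were chosen with earlier results of these data known. All 9 members were named. Of the related factors, up to 3 calls each way per list between depots and up to 2 each way per diet contrast were named. Results on some single genes, which stayed in every test and count, are not reported here. Genes of like profile and neighbouring genes were named by rules of the same kind. Motifs were searched in RefSeq promoters of GRCm38.p6. Alternatives were other pseudocounts, filters, scalings, array weights, fits of only the groups compared, a replicate block and each library left out. Leaving out inguinal normal-diet libraries 0 and 2 together was added after seeing their lymphocyte markers, and it left library 1 alone in that group. The deviations of same-numbered libraries from their group means correlated at over 0.1 in all 3 pairs only between the epididymal and inguinal high-fat groups (0.184, 0.111 and 0.146). Groups on different diets, which cannot share mice, reached 0.272, so these values do not show whether the numbers pair libraries. The meaning of the numbers is not in the labels. Of the other group pairs, 4 had positive correlations in all 3 pairs, with at least 1 under 0.1.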

Additional observations from a re-analysis of the deposited data

Results flagged for a closer look

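For 3 of the 9 genes the effect of the high-fat diet differed between the white depots by the interaction test (limma, adjusted p under 0.05), which 7.22% of all genes also passed. For Irx3 the epididymal minus the inguinal diet effect was -2.913 on the log2 scale, with a fall in epididymal and a rise in inguinal fat. For Tcf21 it was -2.068 and for Wt1 -1.768, where the inguinal libraries were at or near 0 on both diets. Tcf21 and Wt1 were tested only because the epididymal normal-diet libraries reached the level filter, so these differences are not independent of it.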

How the results depend on the processing

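Of the 26 calls made on members over the 6 contrasts, 14 passed under every setting tried and 12 were lost under at least 1. No called difference changed sign. The pseudocount set the size of many: with 0.1 FPKM in place of 0.5 the depot difference averaged over diets was 3.11 for Tcf21, 3.26 for Wt1, -4.57 for Tbx15 and -2.31 for En1. With a filter of 2 FPKM only 5 members could be tested, and 4 were called between the depots over both diets and 1 in the diet by depot contrast. With only the groups compared, 1 member was called between depots on the normal diet and 0 between diets in inguinal fat (1 in the report), the nearest being Irx3 (limma, adjusted p = 0.0538), and array weights gave 2 there. With each library left out in turn, 3 to 6 members were called between depots on the high-fat diet, the 3 arising without epididymal high-fat library 0 or 1 or inguinal high-fat library 1, and 1 to 2 between diets in inguinal fat, the 2 arising without inguinal normal-diet library 1. The replicate block left the number of members called at 7, 7, 5, 3, 1 and 3 in the 6 contrasts, in the order depot over both diets, depot on the normal diet, depot on the high-fat diet, diet in epididymal fat, diet in inguinal fat and diet by depot, and it changed no call of a member.

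Differences that changed sign had not been called. With quantile normalization En1 was at 0.009989 (diet, epididymal) and 0.1118 (diet, inguinal), and the diet by depot value was -0.104 for Tbx15 and -0.07392 for Irx2. Array weights gave 0.09116 for En1 (diet, inguinal) and -0.08902 for Tbx15 (diet by depot). A pseudocount of 0.1 gave diet by depot values of -0.599 for Tbx15, -0.07573 for Irx1 and -0.483 for Irx2. Without inguinal normal-diet libraries 0 and 2 the inguinal diet difference was -0.1006 for Shox2 and 0.03035 for En1. With each library left out in turn, the inguinal diet difference of En1 ranged from -0.2783 to 0.156 and the epididymal one of Irx1 from -0.1372 to 8.779e-05. The diet by depot value then ranged from -0.1121 to 0.3463 for Tbx15, from -0.29 to 0.1443 for En1, from -0.06918 to 0.3455 for Irx1 and from -0.3061 to 0.5373 for Irx2. The causes were not tested.

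Over all genes, calls between depots on the normal diet ranged from 14 to 3092 around 974, and quantile normalization raised the share of them that were higher in epididymal fat from 36.2% to 52.5%. In the diet by depot contrast that share was 66.5%, and 48.7% with quantile normalization. Levels of a few FPKM at unknown depth limit all of these values.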
